A study of Homo sapiens with 9 samples.

Results

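The replication-dependent histone cluster genes were examined in H1299 cells, a human non-small cell lung cancer line, after knockdown of FIBP. They were chosen by gene name: every gene named H2AC, H2BC, H3C or H4C followed by a number, together with H1-1 to H1-6. This gave 66 genes of 60966 in the deposited tables, namely 6 of class H1, 16 of H2A, 17 of H2B, 13 of H3 and 14 of H4, and 104 transcripts of 244443. FPKM values were summed over the transcripts of each gene. Cells had been transfected for 48 h with a Scramble siRNA (the control), under Si-FIBP#1 or under Si-FIBP#2, which are different siRNAs against FIBP, and each group held 3 samples of the same line. The labels do not say whether these came from separate cultures, so the tests measure the spread between samples, which may be technical. RNA was enriched with oligo(dT) beads, a point that matters for genes of this kind.

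Histones are the proteins around which DNA is wrapped. H2A, H2B, H3 and H4 form the core of the nucleosome and H1 binds the linker DNA between nucleosomes. Most histone protein made in S phase comes from clustered genes without introns, whose mRNAs usually carry no poly(A) tail. They end instead in a short stem-loop that is bound by SLBP, the stem-loop binding protein, and the mRNAs are degraded when DNA synthesis stops. Some of the same genes can also give longer, polyadenylated transcripts when the polymerase reads past the stem-loop to a downstream signal. Oligo(dT) beads keep RNAs with a poly(A) tail, so the levels below are those of molecules that were retained in that step, and a change in tail addition and a change in total histone mRNA cannot be told apart. In the same way, fewer cells in a phase of the cycle and less RNA per cell cannot be told apart in bulk samples.

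The stem-loop was the first sequence feature looked for, because it separates the usual short histone mRNA from a longer transcript. A match was searched in the 49 of 89 annotated member transcripts whose length in GENCODE release 29 equalled the length in the deposited tables. It was found in 37 of them, in 6 different spellings, and the most common spelling was present in 15 genes. The sequences shown belong to members with high levels or large changes described below. Capitals mark the 16-base stem-loop and lower case marks 5 bases on each side.
H2AC6: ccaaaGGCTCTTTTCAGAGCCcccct
H2AC18: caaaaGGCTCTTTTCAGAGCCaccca
H2BC4: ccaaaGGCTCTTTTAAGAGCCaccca
H2BC21: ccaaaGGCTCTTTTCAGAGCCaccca
H3C10: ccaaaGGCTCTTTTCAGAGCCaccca
H4C14: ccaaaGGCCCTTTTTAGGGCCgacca
H4C8: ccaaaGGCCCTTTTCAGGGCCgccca
The H2A, H2B and H3 members shown shared the whole stem, and H2BC4 differed from the others in the loop. Both H4 members carried another stem, with the same outer bases, and differed from each other in the loop. In the listed annotation the H2AC18 transcript stopped 35 nt after the stem-loop. The H2AC6 transcripts of 1654 and 1668 nt ran 1114 and 1128 nt past it while that of 1462 nt held none, the H2BC21 transcript 1729 nt and the H3C10 transcript 769 nt.

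Promoters were read from RefSeq (GRCh38.p14), which held 61 of the 66 members, in windows from 250 bases before to 50 bases after each start. CCAAT, on either strand, was present in 85.2% of members and in 39.7% of all 27305 genes, each gene counted over all its windows. It was present in 100% of the H1, H2A, H2B and H3 genes and in 25% of the H4 genes, a share below that of all genes. TATAAA, on either strand, was present in 68.9% of members and 14% of all genes. ATGCAAA, the core of the octamer element known from H2B promoters, was present on either strand in 82.4% of H2B, 73.3% of H2A and 9.1% of H3 genes, in no H1 or H4 gene, and in 5.5% of all genes. The H3 share is H3C4 alone, whose match lies in a window that RefSeq also gives for H2AC7 and is absent from its other window. Windows of neighbouring H2A and H2B genes on opposite strands can overlap, so the same match can count for both classes. This was so for H2AC6 with H2BC4 and for H2AC20 with H2BC21, and the H2A and H2B shares are not independent. The 250 bases before the start are printed for H2BC12, the member with the highest level, and for H2BC21, which shares its promoter region with the only member called lower. Capitals mark matches to the 3 motifs on either strand, where TATAAA and its reverse complement can overlap.
H2BC12, chr6:27146859-27147108, minus strand: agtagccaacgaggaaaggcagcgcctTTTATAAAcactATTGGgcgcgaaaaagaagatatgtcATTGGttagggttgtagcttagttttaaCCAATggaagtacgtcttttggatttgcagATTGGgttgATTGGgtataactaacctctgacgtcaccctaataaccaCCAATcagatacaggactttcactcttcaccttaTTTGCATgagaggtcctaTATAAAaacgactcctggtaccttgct
H2BC21, chr1:149886683-149886932, minus strand: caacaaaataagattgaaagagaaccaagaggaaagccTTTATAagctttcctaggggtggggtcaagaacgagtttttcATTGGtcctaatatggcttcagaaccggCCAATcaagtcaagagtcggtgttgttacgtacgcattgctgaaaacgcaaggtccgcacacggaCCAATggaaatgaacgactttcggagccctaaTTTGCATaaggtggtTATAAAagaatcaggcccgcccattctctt
Both windows held the octamer core once. CCAAT was found 6 times in the H2BC12 window and 3 times in that of H2BC21. Motif matches describe letters only and show no binding.

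FIBP itself read 88.4, 79.5 and 77.7 FPKM in the 3 Scramble samples, 7.49, 7.77 and 4.30 under Si-FIBP#1 and 7.13, 5.92 and 8.21 under Si-FIBP#2. All 6 siRNA samples were below all Scramble samples. Its log2 fold change was -3.50 ± 0.18 (SE; adjusted p = 9.4e-07, limma with Benjamini-Hochberg adjustment) under Si-FIBP#1 and -3.36 ± 0.18 (adjusted p = 1.42e-06) under Si-FIBP#2. Of the carcinoma markers, VIM, KRT18 and KRT8 were high. KRT18 fell from 476 ± 8.30 FPKM in Scramble to 209 ± 16.4 and 175 ± 28.4 and was called lower with both siRNAs (-1.19 ± 0.11 and -1.45 ± 0.11), and VIM and KRT8 were lower with both at less than 2-fold (adjusted p of 0.00512 or less). The part of these shifts in the histone values was not tested. In contrast, CDH1 was listed at 0 in all samples and EPCAM, KRT19, NKX2-1, NAPSA and SFTPB stayed under 1 FPKM in every group mean. The markers of blood, endothelial, stromal, glial and liver cells summed to 1.14 to 3.74 FPKM per sample over 11 genes, and CD3E and LUM were at 0 throughout. FPKM totals ranged from 781058 to 818104 per sample, and read counts are not given in the tables, so depth and counting error are unknown.

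In Scramble cells the members summed to 361 ± 14.7 FPKM (SD, n = 3), which was 0.0459% of all FPKM. H2B genes carried most of it with 228 ± 10.3 FPKM, followed by H2A with 65.0 ± 4.02, H1 with 41.3 ± 1.76, H4 with 19.003 ± 0.32 and H3 with 7.13 ± 1.13. The ranges of these 5 classes did not overlap between neighbours in that order. FPKM is a level per transcript length, so these levels were set side by side. However, the selection for poly(A) tails differs between transcripts, and the effect of fragment selection at 300 bp on short transcripts was not tested. H2BC12 alone made up 51.4% ± 0.356 of the member sum. Of the 66 members, 6 were listed at 0 in all 9 samples (H2AC1, H2BC1, H3C11, H4C6, H4C7 and H4C13), and 17 more never reached 1 FPKM. H2AC1 and H2BC1 are testis histone genes.

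The member sum was higher in all 6 siRNA samples than in any Scramble sample. It read 376, 359 and 347 FPKM in Scramble, 1255, 1284 and 1203 under Si-FIBP#1, and 909, 1167 and 926 under Si-FIBP#2. The ratio of means to Scramble was 3.46 under Si-FIBP#1 and 2.77 under Si-FIBP#2. Without H2BC12 the ratios were 3.08 and 2.79. All 5 classes showed the same direction without overlap between the siRNA and Scramble samples. Their ratios were 2.15 and 1.59 for H1, 3.203 and 3.01 for H2A, 3.83 and 2.94 for H2B, 4.11 and 2.94 for H3, and 2.49 and 2.49 for H4, under Si-FIBP#1 and Si-FIBP#2 in that order. Replicate 2 of Si-FIBP#2 stood above the other samples of its group in the H2B sum, at 827 FPKM against 584 and 601. The 55 members on chromosome 6 rose as a sum from 317 to 1125 and 892 FPKM, and the 11 on chromosome 1 from 43.7 to 123 and 109 FPKM. These sums are descriptions and were not tested.

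**Figure D1:**
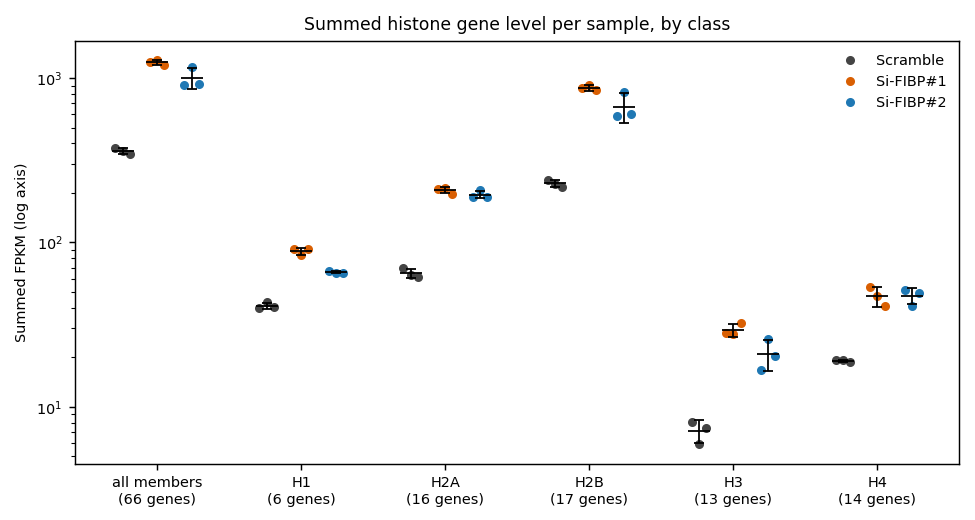
Summed FPKM of the histone genes in each sample (log axis), for all 66 genes and by class. Points are samples, the horizontal mark and bar are the mean and SD of 3 samples, and every siRNA point lies above every Scramble point within each class.

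Gene by gene, 37 members passed the filter of at least 1 FPKM in at least 3 samples and were tested. A gene was called when its adjusted p was below 0.05 and its change was over 2-fold on the log2(FPKM + 1) scale, which understates changes of low genes. With Si-FIBP#1, 21 members were called higher and 1 lower, where 2.55% of all 14985 genes tested were called higher and 3.11% lower. With Si-FIBP#2, 21 members were called higher and 1 lower, where 2.92% of genes were called higher and 2.13% lower. At the adjusted p alone, whatever the fold, 27 members were higher and 1 lower under Si-FIBP#1, against 27.8% and 19.9% of all genes, and 26 were higher and 1 lower under Si-FIBP#2, against 31.1% and 17.7%. Both comparisons use the same Scramble samples. With both siRNAs, 19 members were called higher and H2AC20 was called lower. The median log2 fold change of the tested members was 1.33 and 1.07, and that of all genes tested was 0.07 and 0.11. Without the filter, the median of the 60 members above 0 in any sample was 0.66 and 0.67. That of all 32076 genes fitted in this way was 0.01 and 0.03. All 6 siRNA samples exceeded all 3 Scramble samples in 25 of the 37 members, against 26.3% of all genes, and fell below them in 1 member, against 16.5% of all genes. Passing the filter depended on the siRNA samples for some members. Of the 25, H2BC7, H2BC13, H2BC18, H3C2, H4C5 and H4C9 reached 1 FPKM in no Scramble sample. The counts at the adjusted p alone and the medians of the tested members include these members too. Among the 23 that reached 1 FPKM in all 3 Scramble samples, 16 and 17 were called higher and 1 was called lower, and among the 10 that reached it in no Scramble sample, 4 were called higher with either siRNA. Under the median ratio scaling, 21 and 18 members were called higher, and the whole table split into 338 higher and 528 lower genes under Si-FIBP#1 and 345 higher and 417 lower under Si-FIBP#2, against 382 and 466, and 438 and 319, without it.

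**Figure D2:**
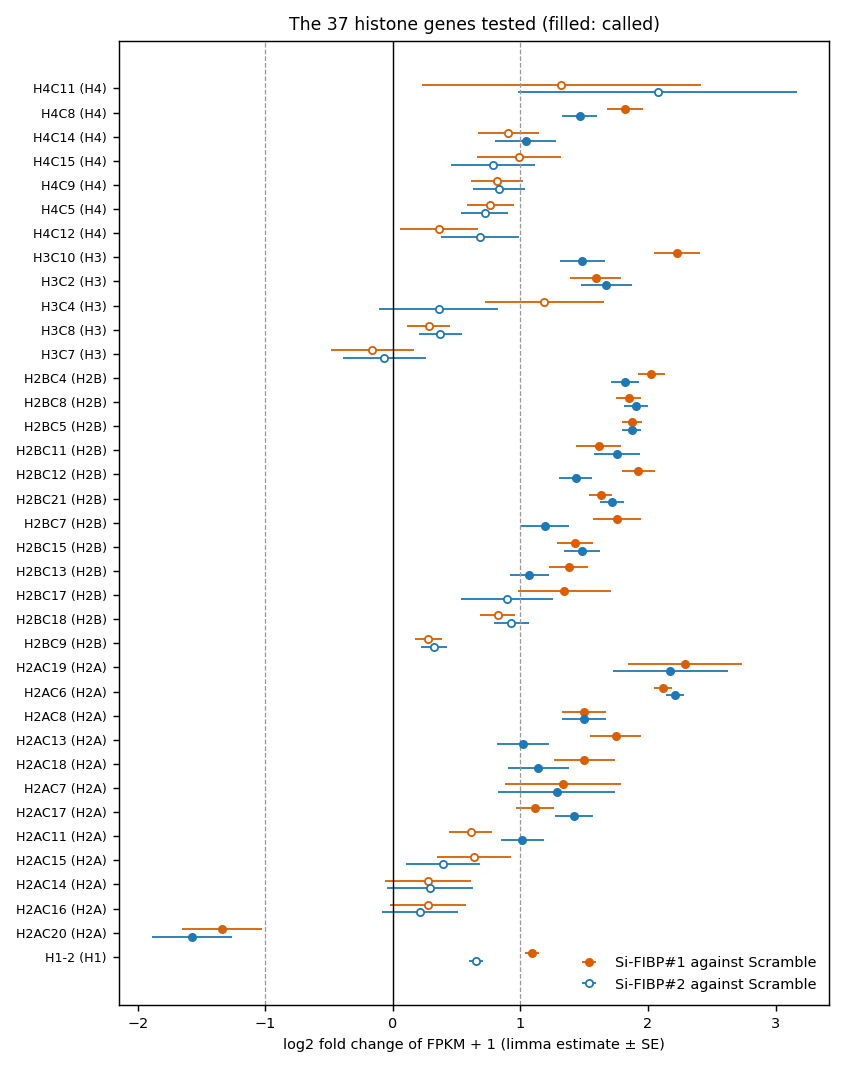
Log2 fold change of FPKM + 1 against Scramble for the 37 histone genes tested, with the limma standard error, for Si-FIBP#1 (orange) and Si-FIBP#2 (blue), grouped by class. Filled points were called, dashed lines mark a 2-fold change, and H2AC20 is the only gene with called values to the left of 0.

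H2B genes gave the highest levels. Of the 17 H2B members, 12 were tested, and 10 were called higher under Si-FIBP#1 and 9 under Si-FIBP#2. Both counts include H2BC7 and H2BC13, which reached 1 FPKM in no Scramble sample. That for Si-FIBP#1 also includes H2BC17, which reached it in 1. Over all genes tested, 2.55% and 2.92% were called higher. H2BC12 read 192, 185 and 179 FPKM in Scramble, 704, 742 and 676 under Si-FIBP#1, and 432, 651 and 450.5 under Si-FIBP#2. The siRNA samples lay far above Scramble, with replicate 2 of Si-FIBP#2 above the other samples of its group. Its log2 fold change was 1.93 ± 0.13 (SE; adjusted p = 3.67e-06) and 1.43 ± 0.13 (adjusted p = 2.36e-05).

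H2BC4 read 17.0, 13.96 and 14.2 FPKM in Scramble, 65.9, 63.5 and 62.9 under Si-FIBP#1, and 51.1, 65.97 and 50.4 under Si-FIBP#2. This was a rise by 2.03 ± 0.11 and 1.82 ± 0.11 on the log2 scale (adjusted p = 1.02e-06 and 2.2e-06). H2BC5 samples lay close together within each group, at 10.2, 9.10 and 11.4 FPKM in Scramble, 40.3, 41.6 and 38.2 under Si-FIBP#1, and 39.8, 39.4 and 40.7 under Si-FIBP#2. Its rise was 1.87 ± 0.08 with each siRNA (adjusted p = 4.16e-07 and 5.36e-07). H2BC8, a low gene, went from 1.34, 1.23 and 1.02 FPKM in Scramble to 6.77, 6.62 and 7.30 under Si-FIBP#1 and 6.59, 7.78 and 7.33 under Si-FIBP#2. The log2 fold change was 1.85 ± 0.10 and 1.91 ± 0.10 (adjusted p = 9.85e-07 and 1.13e-06), and the plain ratio of means was 5.76 and 6.04.

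H2BC7, H2BC11, H2BC13, H2BC15 and H2BC21 also rose with both siRNAs, with log2 fold changes between 1.07 and 1.76, although H2BC7 and H2BC13 reached 1 FPKM in no Scramble sample and were tested only because their siRNA samples did. H2BC17 rose under Si-FIBP#1 (1.34 ± 0.36, adjusted p = 0.0128) and missed the threshold under Si-FIBP#2 (0.89 ± 0.36, adjusted p = 0.0668). It reached 1 FPKM in 1 Scramble sample (1.74, 0.38 and 0 FPKM) and so met the filter through its siRNA samples. H2BC18 passed the adjusted p with both siRNAs at less than 2-fold (0.82 ± 0.14 and 0.93 ± 0.14). Like H2BC7 and H2BC13, it reached 1 FPKM in no Scramble sample. Most of its sum was on a 14727-nt assembled transcript, at 0.517, 1.56 and 1.42 FPKM in Scramble, Si-FIBP#1 and Si-FIBP#2. H2BC9 read 1.99 ± 0.11, 2.63 ± 0.30 and 2.74 ± 0.14 FPKM in Scramble, Si-FIBP#1 and Si-FIBP#2 (mean ± SD, n = 3), a difference of 0.28 ± 0.10 and 0.32 ± 0.10 on the log2 scale, of which the latter passed the adjusted p (0.0508 and 0.0277). Its annotated 2060-nt transcript read 1.62, 1.69 and 1.87 FPKM in these groups, ratios of 1.04 and 1.15. Its assembled 2744-nt transcript read 0.367, 0.943 and 0.867 FPKM, ratios of 2.57 and 2.36.

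H2A was the class with members called in both directions. Of its 16 members, 12 were tested, 7 were called higher under Si-FIBP#1 and 8 under Si-FIBP#2, and H2AC20 was called lower with both. The counts called higher include H2AC7, which reached 1 FPKM in no Scramble sample. The shares of all genes were 2.55% and 2.92% called higher, and 3.11% and 2.13% called lower. H2AC6 read 16.2, 14.4 and 15.8 FPKM in Scramble, 67.7, 68.1 and 76.1 under Si-FIBP#1, and 72.4, 80.6 and 72.3 under Si-FIBP#2. All siRNA samples lay above all Scramble samples, the 2 siRNA groups overlapped each other, and the rise was 2.12 ± 0.07 and 2.21 ± 0.07 on the log2 scale (adjusted p = 2.33e-07 and 2.49e-07).

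H2AC18 and H2AC19 are near-identical copies on chromosome 1, and every 150-nt window of H2AC18 recurs in H2AC19, so reads of the pair cannot be assigned with certainty. H2AC18 read 27.8, 19.4 and 11.6 FPKM in Scramble, 48.7, 58.4 and 55.9 under Si-FIBP#1, and 47.0, 40.1 and 39.2 under Si-FIBP#2. H2AC19 read 2.34, 7.63 and 12.4 FPKM in Scramble, 46.2, 37.0 and 24.2 under Si-FIBP#1, and 23.3, 40.3 and 34.6 under Si-FIBP#2. Within Scramble the sample highest for H2AC18 was the lowest for H2AC19. Their sum was steadier, at 30.2, 27.1 and 24 FPKM in Scramble, 94.9, 95.3 and 80.1 under Si-FIBP#1, and 70.3, 80.3 and 73.7 under Si-FIBP#2. As a sum they rose by 1.70 ± 0.10 and 1.44 ± 0.10 on the log2 scale (adjusted p = 1.36e-06 and 4.12e-06). Taken alone, H2AC18 rose by 1.5 ± 0.24 and 1.14 ± 0.24 (adjusted p = 0.000724 and 0.00346), but without Scramble replicate 3 its value under Si-FIBP#2 was 0.82 and no longer 2-fold. H2AC19 alone rose by 2.29 ± 0.45 and 2.18 ± 0.45 (adjusted p = 0.00233 and 0.00304).

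H2AC8, H2AC13 and H2AC17 rose with both siRNAs by 1.02 to 1.75. Reads of the latter pair are uncertain, since 51.7% of the windows of H2AC13 recur in H2AC14 and 80.7% of those of H2AC17 in the overlapping H3C12. H2AC7 was called with both from a Scramble level of 0.150 FPKM, with no Scramble sample at 1 FPKM. Its Si-FIBP#2 samples overlapped those of Scramble, and its Si-FIBP#1 samples did not. Of its windows, 97.1% recur in a gene model without a symbol. H2AC11 was called under Si-FIBP#2 alone (1.01 ± 0.17), and its value under Si-FIBP#1 was 0.61 ± 0.17. H2AC14, H2AC15 and H2AC16 did not pass the test with either siRNA and had log2 fold changes of 0.21 to 0.64.

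H2AC20 fell, from 5.36, 4.65 and 3.44 FPKM in Scramble to 1.31, 1.92 and 0.45 under Si-FIBP#1 and to 0.22, 1.62 and 0.88 under Si-FIBP#2. Each siRNA sample was below each Scramble sample. The log2 fold change was -1.34 ± 0.31 and -1.58 ± 0.31 (adjusted p = 0.00621 and 0.00256). GENCODE release 29 lists 390 nt for the H2AC20 transcript, against 494 nt in the deposited tables. No 150-nt window of those 390 nt recurs exactly in another gene of that release. Sequence outside them and near matches were not searched.

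H2A and H2B genes often lie head to head, with their promoters in the gap between them. In GENCODE release 29 (GRCh38), 10 H2A and H2B pairs of this kind had annotated starts within 1000 nt, at distances of 219 to 331 nt. Release 29 gives only the coding part of some members, so these distances are those of annotated starts. H2AC15 and H2BC15 overlap on opposite strands in that release and were not counted, although their promoter windows in RefSeq overlap. H2BC15 was called higher with both siRNAs (1.43 and 1.48) and H2AC15 with neither (0.64 and 0.39). Neither gene of H2AC1 and H2BC1 was detected. H2BC4 and H2AC6 stood at nearly the same level in Scramble, 15.0 and 15.5 FPKM, and both rose. In H2BC8 with H2AC8, H2BC13 with H2AC13 and H2AC7 with H2BC7, both genes were also called higher with each siRNA. Of these, H2AC7, like H2BC7 and H2BC13, reached 1 FPKM in no Scramble sample. In H2BC11 with H2AC11 both were called under Si-FIBP#2 and in H2AC17 with H2BC17 both under Si-FIBP#1. H2BC17 reached 1 FPKM in only 1 Scramble sample. H2AC14 was not called and its partner H2BC14 was not tested. By contrast, H2BC12 and H2AC12 differed in level in every group, with means of 185, 707 and 511 FPKM for H2BC12 and 0.440, 0.393 and 0.500 FPKM for H2AC12, which was not tested.

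H2BC21 and H2AC20 are the pair that moved apart, and their promoter windows in RefSeq overlap on chromosome 1. H2BC21 read 3.77, 3.64 and 2.96 FPKM in Scramble, 12.6, 13.2 and 12.4 under Si-FIBP#1, and 12.6, 14.7 and 13.6 under Si-FIBP#2, while H2AC20 fell as given above. H2BC21 rose by 1.63 ± 0.09 and 1.72 ± 0.09 on the log2 scale (adjusted p = 1.36e-06 with each). Their means in Scramble were 3.46 FPKM for H2BC21 and 4.48 for H2AC20, and under Si-FIBP#1 they were 12.7 and 1.23. The listed H2BC21 transcript is 2194 nt long, and the listed H2AC20 transcript is 494 nt long.

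H1 was represented almost wholly by H1-2. It read 39.4, 42.9 and 39.9 FPKM in Scramble, 90.7, 82.6 and 90.8 under Si-FIBP#1, and 65.98, 63.7 and 64.01 under Si-FIBP#2. The 3 groups did not overlap. It rose by 1.09 ± 0.06 under Si-FIBP#1 (adjusted p = 8.77e-07), and under Si-FIBP#2 the change of 0.65 ± 0.06 (adjusted p = 1.74e-05) was less than 2-fold. H1-5 and H1-4, next in level, had group means from 0.060 to 0.393 FPKM and were not tested, and H1-1, H1-3 and H1-6 (a testis form) were listed at 0 in all Scramble samples.

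H3 members were low, and 2 of the 5 tested, H3C10 and H3C2, were called higher with each siRNA. Among all genes tested, 2.55% and 2.92% were called higher. H3C2 reached 1 FPKM in no Scramble sample and so entered the test only through its siRNA samples. H3C10 was the highest at 3.91, 2.53 and 3.32 FPKM in Scramble, 17.7, 19.2 and 19.4 under Si-FIBP#1, and 8.97, 15.0 and 9.33 under Si-FIBP#2. It rose by 2.23 ± 0.18 and 1.49 ± 0.18 on the log2 scale (adjusted p = 1.09e-05 and 0.000142), and replicate 2 of Si-FIBP#2 was again the highest of its group. H3C2 read 0.43, 0.19 and 0.40 FPKM in Scramble, 2.09, 3.04 and 4.19 under Si-FIBP#1, and 3.19, 2.63 and 4.07 under Si-FIBP#2. Both siRNA groups lay above Scramble, with a log2 fold change of 1.59 ± 0.20 and 1.67 ± 0.20 (adjusted p = 0.000171 and 0.00013). H3C8 read 1.19, 1.07 and 1.27 FPKM in Scramble, 1.66, 1.32 and 1.98 under Si-FIBP#1, and 2.16, 1.20 and 2.21 under Si-FIBP#2. Its groups overlapped, and the log2 fold changes of 0.28 ± 0.17 and 0.37 ± 0.17 did not pass (adjusted p = 0.204 and 0.0972). H3C14 and H3C15, which share all windows, were listed with identical values below 0.5 FPKM.

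In class H4, 7 of 14 members were tested. Of these, 1 was called under Si-FIBP#1 and 2 under Si-FIBP#2, where 2.55% and 2.92% of all genes were called higher. Another 4 under Si-FIBP#1 (H4C5, H4C9, H4C14 and H4C15) and 2 under Si-FIBP#2 (H4C5 and H4C9) passed the adjusted p at less than 2-fold. The adjusted p alone was passed in the higher direction by 27.8% and 31.1% of all genes. H4C5 and H4C9 reached 1 FPKM in no Scramble sample and H4C15 in 1, so these entered the test through their siRNA samples. H4C8 read 2.38, 1.91 and 2.29 FPKM in Scramble, 11.03, 9.09 and 10.7 under Si-FIBP#1, and 6.58, 9.81 and 7.28 under Si-FIBP#2. It rose by 1.82 ± 0.14 and 1.46 ± 0.14 (adjusted p = 7.37e-06 and 3.09e-05).

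H4C14 read 7.73, 4.57 and 7 FPKM in Scramble, 14.02, 15.1 and 9.57 under Si-FIBP#1, and 18.5, 10.2 and 14.5 under Si-FIBP#2. It was called under Si-FIBP#2 (1.04 ± 0.24, adjusted p = 0.00545) and not under Si-FIBP#1 (0.91 ± 0.24, adjusted p = 0.0114). Its call under Si-FIBP#2 was lost without Scramble replicate 2 (0.85) or Si-FIBP#2 replicate 1 (0.85), and under the median ratio scaling (0.96). Under Si-FIBP#1 the call was gained at a pseudocount of 0.1 (1.0003), without Scramble replicate 1 (1.03) and without Si-FIBP#1 replicate 3 (1.09). It shares 92.2% of its windows with H4C15, and it overlaps H3C14 on the other strand. Summed with H4C15 it rose with each siRNA, by 1.02 ± 0.16 and 1.08 ± 0.16 (adjusted p = 0.000671 and 0.000485).

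H4C12 read 6.41, 9.94 and 6.76 FPKM in Scramble, 5.28, 16.4 and 11.2 under Si-FIBP#1, and 12.7, 13.6 and 12.04 under Si-FIBP#2. It did not pass the test (0.36 ± 0.31 and 0.68 ± 0.31, adjusted p = 0.363 and 0.0944). All its windows recur in H4C11, which was listed at 0 in all Scramble samples, at 14.6, 0 and 0 FPKM under Si-FIBP#1 and at 6.84, 0 and 8.55 under Si-FIBP#2. The sum of both was 6.41, 9.94 and 6.76 FPKM in Scramble, 19.9, 16.4 and 11.2 under Si-FIBP#1, and 19.6, 13.6 and 20.6 under Si-FIBP#2. That sum rose under Si-FIBP#2 (1.12 ± 0.23, adjusted p = 0.00272) and under Si-FIBP#1 passed the adjusted p at less than 2-fold (0.94 ± 0.23, adjusted p = 0.00707). Adding up copies was chosen after the values were seen.

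Transcript length was used to set the short class apart, with a limit of 800 nt. The 62 short transcripts held 85.6% ± 0.633 of the member FPKM in Scramble, 83.9% ± 1.05 under Si-FIBP#1 and 81.1% ± 0.963 under Si-FIBP#2 (SD, n = 3). The Si-FIBP#2 samples, at 80.3%, 82.2% and 80.7%, lay below all others, and those of the other groups did not overlap either, at 84.9% or more in Scramble and 84.7% or less under Si-FIBP#1. Weighted by length, which stands for the amount of sequence, the short share was 52.3%, 49.8% and 46.5%. The summed FPKM of short transcripts rose 3.39-fold and 2.63-fold and that of the 42 long ones 3.85-fold and 3.63-fold. A limit of 600 nt moved the short share to 67.8%, 69.1% and 65.3%, where Si-FIBP#1 no longer lay below Scramble, the Si-FIBP#2 samples overlapped those of Scramble, and short transcripts rose more than long ones under Si-FIBP#1 (3.53-fold and 3.32-fold). At 600 nt without H2BC12 the share was 38.8%, 34.8% and 34.6%, so the order of the groups depends on the limit and on H2BC12.

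**Figure D3:**
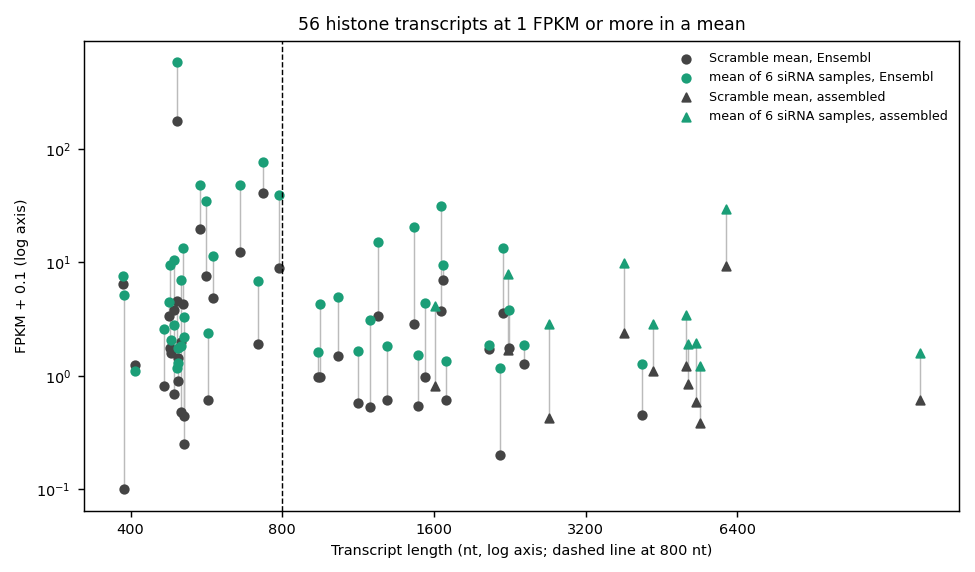
Length and level of the 56 histone transcripts with a mean of at least 1 FPKM in Scramble or over the 6 siRNA samples (both axes log, level as FPKM + 0.1). Grey lines join the Scramble mean to the siRNA mean of a transcript, circles are Ensembl transcripts and triangles were assembled by the authors. Most transcripts on both sides of 800 nt lie higher in the siRNA samples (green) than in Scramble (dark grey), and the highest is the 495-nt transcript of H2BC12.

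Among the transcripts whose ends could be read, short length did not mean that a transcript ended at the stem-loop. Those that could not be read held most of the member FPKM and are given below. Of the 49 transcripts that could be read, 9 ended within 60 nt of the stem-loop, 28 ran past it and 12 held none. Those ending at it summed to 35.1, 117 and 96.7 FPKM in Scramble, Si-FIBP#1 and Si-FIBP#2, ratios of 3.32 and 2.76. Those running past it summed to 34.1, 114 and 112 FPKM, ratios of 3.35 and 3.29, and 18 of the 28 had AATAAA, the usual polyadenylation signal, in their last 40 nt. Those without a stem-loop summed to 28.1, 123 and 118 FPKM, ratios of 4.37 and 4.22. The main transcripts of H2BC4 (659 nt) and H2BC5 (789 nt) were short and held no stem-loop (the H2BC4 stem-loop shown above is that of its 571-nt transcript), at 12.2 and 8.88 FPKM in Scramble, 51.4 and 38.8 under Si-FIBP#1, and 44.6 and 38.8 under Si-FIBP#2. H2BC5 also has a 496-nt transcript that ends 39 nt past the stem-loop, and this read 1.34 ± 0.529, 1.23 ± 0.617 and 1.13 ± 1.05 FPKM in Scramble, Si-FIBP#1 and Si-FIBP#2, ratios of 0.92 and 0.846. The rise in the gene sum of H2BC5 was that of the 789-nt transcript. H4C8 is listed with a 1034-nt transcript that runs 630 nt past the stem-loop and read 1.39, 5.38 and 4.37 FPKM, while its 397-nt transcript, which ends 18 nt past the stem-loop, was listed at 0 in all 9 samples. How StringTie or another tool divided reads between overlapping transcripts of a gene cannot be checked from these values. Of the 9 transcripts ending at the stem-loop, 3 (those of H2AC18, H2AC19 and H2BC5) had AATAAA in their last 40 nt. These 3 held 28.4 of the 35.1 FPKM of that set in Scramble and 91.4 of 117 under Si-FIBP#1, and the other 6 held 6.65, 25.2 and 20.8 FPKM in the 3 groups, ratios of 3.79 and 3.12.

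Another 40 annotated transcripts had a different length in release 29, so their ends could not be read, and they include the 495-nt transcript of H2BC12. That transcript held 176 of the 185 FPKM of H2BC12 in Scramble, 674 under Si-FIBP#1 and 487 under Si-FIBP#2, a ratio of 3.82 and 2.76. A 6079-nt transcript of H2BC12, assembled by the authors, read 9.11, 33.6 and 24.8 FPKM, a ratio of 3.69 and 2.72. The 15 assembled member transcripts summed to 19.1, 74.5 and 63.5 FPKM, ratios of 3.90 and 3.33. For H2AC6 the listed transcripts of 1654 and 1668 nt traded values between samples of a group, down to 0.01 and 0 FPKM, so only the gene sum was compared.

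RNAs that lack poly(A) tails were looked at beside these results, since they show how much of such RNA the libraries held. Of 19 such RNAs, 9 were listed at 0 in all samples. Another 7 were tested and none was called with either siRNA, with a median log2 fold change of 0.44 and 0.49. RN7SL1 and RN7SL2, the RNAs of the signal recognition particle, were higher and passed the adjusted p at less than 2-fold. These 2 of 7 are near the share of all genes higher at the adjusted p alone, 27.8% under Si-FIBP#1 and 31.1% under Si-FIBP#2. RN7SL2 read 888, 611 and 598 FPKM in Scramble, 1523, 1049 and 1040.4 under Si-FIBP#1, and 1095, 1601 and 902 under Si-FIBP#2, so that replicate 2 of Si-FIBP#2, high in H2BC12, was high here too. In the other groups replicate 1 was the highest for RN7SL2, while H2BC12 was highest in replicate 1 of Scramble and in replicate 2 of Si-FIBP#1. Its log2 fold change was 0.78 ± 0.23 and 0.76 ± 0.23 (adjusted p = 0.0191 and 0.0216). The part of such carry-over in the histone values was not tested. Without that library, H2BC12 rose by 1.25 under Si-FIBP#2, H3C10 by 1.27, and 22 members were called higher under Si-FIBP#2.

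Other genes of the histone pathway were counted against the shares of all genes, which were 2.55% higher and 3.11% lower under Si-FIBP#1 and 2.92% and 2.13% under Si-FIBP#2. Of 19 genes for histone gene transcription and histone mRNA end processing, 1 was called higher and 1 lower under Si-FIBP#1 and 2 lower under Si-FIBP#2, counts too small to set apart from those shares, with medians of -0.02 and -0.06. CCNE1 and CCNE2 encode the E cyclins, which activate the kinase CDK2 and through it NPAT, the coactivator of histone genes. CCNE1 rose under Si-FIBP#1 (1.11 ± 0.13, adjusted p = 9.94e-05), and its value under Si-FIBP#2 was 0.77 ± 0.13, less than 2-fold. CCNE2 fell with both (-1.14 ± 0.10 and -1.07 ± 0.10), and CDK2 fell under Si-FIBP#2 (-1.06 ± 0.07) and stood at -0.96 ± 0.07 under Si-FIBP#1. SLBP, singled out after its values were seen, read 102 ± 3.86 FPKM in Scramble, 65.7 ± 0.527 under Si-FIBP#1 and 51.3 ± 4.85 under Si-FIBP#2. Its log2 fold changes of -0.63 ± 0.07 and -0.99 ± 0.07 passed the adjusted p (5.83e-05 and 4.36e-06) at less than 2-fold.

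Of 21 histone chaperone and nucleosome assembly genes, 6 were called lower under Si-FIBP#1 and 1 under Si-FIBP#2, and none higher, with medians of -0.44 and -0.33. HJURP, the chaperone of the centromeric histone, had log2 fold changes of -1.62 ± 0.13 (adjusted p = 1.03e-05) and -0.97 ± 0.13, and only the former was called. ASF1B, a chaperone of newly made H3 and H4, had -1.32 ± 0.06 (adjusted p = 6.85e-07) and -0.88 ± 0.06. CHAF1B, a subunit of chromatin assembly factor 1, fell with both siRNAs by 1.07 ± 0.09 and 1.05 ± 0.09 on the log2 scale.

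Of 11 replication-independent histone variants, which are made from polyadenylated mRNA, 3 were called lower with each siRNA and none higher, with medians of -0.36 and 0.06. H2AZ1 fell from 775 ± 23.3 FPKM in Scramble to 315 ± 14.7 and 298 ± 19.7. H2AX, which is phosphorylated at DNA breaks and can be made both with and without a tail, fell from 140.1 ± 5.68 FPKM to 60.4 ± 1.07 and 56.2 ± 6.15. CENPA, the centromeric H3, fell from 35.3 ± 1.92 FPKM to 10.8 ± 0.866 and 14.3 ± 2.30.

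Of 25 S phase genes, among them CCNE2 and SLBP again, 23 were called lower under Si-FIBP#1 and 18 under Si-FIBP#2, and none was called higher, with medians of -1.43 and -1.17. RRM2 and TYMS, enzymes that supply DNA precursors, and CDC45, a part of the replicative helicase, had the largest mean of both log2 changes among the called genes of this list, although GINS1 fell more than CDC45 under Si-FIBP#1 (-2.18 ± 0.12) and stood at -0.71 ± 0.12 under Si-FIBP#2. RRM2 fell from 132 ± 2.84 FPKM to 29.7 ± 2.34 and 36.9 ± 7.13. TYMS fell from 213 ± 5.28 FPKM to 45.7 ± 2.14 and 73.4 ± 8.83, and CDC45 from 42.7 ± 2.87 FPKM to 11.1 ± 1.39 and 14.2 ± 1.03. In the same samples 21 of the 37 tested cluster genes were called higher with each siRNA, 19 of them with both. The shares of all genes called higher were 2.55% and 2.92%. Of the 10 cluster genes with no Scramble sample at 1 FPKM, 4 were among the 21 in each comparison. MKI67, a proliferation marker, fell under Si-FIBP#1 (-1.50 ± 0.11) and stood at -0.97 ± 0.11 under Si-FIBP#2.

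Between the siRNAs, no tested member was called, where 0.267% of all genes were called higher and 0.294% lower under Si-FIBP#2 than under Si-FIBP#1. At an unadjusted p under 0.05, 7 of 37 members differed, against 29.9% of all genes. The median log2 difference of the members was -0.002 and that of all genes was 0.04. H1-2, H2AC13, H2BC12 and H3C10 passed the adjusted p at less than 2-fold, all lower under Si-FIBP#2. Of all genes, 5.8% were lower and 9.58% higher at the adjusted p alone. The difference was -0.44 ± 0.06 for H1-2 (adjusted p = 0.00134), -0.49 ± 0.13 for H2BC12 (adjusted p = 0.032), -0.74 ± 0.18 for H3C10 (adjusted p = 0.023) and -0.73 ± 0.20 for H2AC13 (adjusted p = 0.0382). For H2BC5 the difference was 0.00 ± 0.08 and for H2AC6 it was 0.09 ± 0.07, with standard errors among the smallest of the tested members.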

How the data were processed

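RNA-seq of H1299 cells was taken from 9 deposited transcript tables, each of 1 sample. Per the labels, mRNA was selected with oligo(dT) beads, fragmented, primed with random hexamers and sequenced as 2 x 150 nt pairs from fragments selected at 300 bp. HISAT2 and StringTie are named in the submitters' processing notes. Their roles, versions, the genome build and the use of strand are not given in the sources used here. The deposited values were taken as FPKM computed by the authors, from their range and sums; the tables name no unit. Replicates were not pooled, and assembled transcripts are listed beside Ensembl ones. The tables hold no counts, so no count test was run. The smallest steps between low values, about 0.11 to 0.13 FPKM on a 500-nt transcript, could not be settled as reads.

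FPKM was summed per gene. limma (3.58.1, R 4.3.3), with trend, was run on log2(FPKM + 1) for the 14985 genes that reached 1 FPKM in 3 or more samples, over all 9 samples and group only, with Benjamini-Hochberg adjustment. A call needed an adjusted p below 0.05 and a fold change over 2, the thresholds of the study. Tested on simulated data in which 200 of 14985 genes had a log2 change of 1.5, the fit recovered 95% and 92.5% of them in the comparisons of Si-FIBP#1 and Si-FIBP#2 with Scramble, with 0 and 1 false calls. Sequences came from GENCODE release 29 (64 of 66 members matched) and RefSeq; Python 3.11.15 was used.

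Members, gene lists and tests were chosen with earlier results of these data known. Values in every sample are given for FIBP, for the 3 highest members per class, and for up to 5 rises and 5 falls that were largest by the mean of both fold changes among members called with both siRNAs; 1 fall met this. From each gene list up to 3 genes with the largest mean change among those called are named. Alternatives were another pseudocount, filters, scalings and fits, annotated transcripts only, other length limits and each sample left out; summing near-identical copies and leaving out H2BC12 were added after the data were seen.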

Additional observations from a re-analysis of the deposited data

Results flagged for a closer look

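For 4 members the change against Scramble differed between the siRNAs in the test of Si-FIBP#2 against Si-FIBP#1, at an adjusted p under 0.05 (limma) and less than 2-fold, as 5.8% of all genes were lower and 9.58% higher at that p. H1-2 (-0.44) and H2BC12 (-0.49), the members with the highest mean levels over all 9 samples, H3C10 (-0.74) and H2AC13 (-0.73) were all lower with Si-FIBP#2. H1-2 stayed past the adjusted p in all 18 alternative fits, with a highest adjusted p of 0.00808. H2BC12 lost it in 7 of 18 (highest 0.11), H3C10 in 6 of 18 (highest 0.0842) and H2AC13 in 9 of 18 (highest 0.114). Without replicate 2 of Si-FIBP#2, the sample nearest to Si-FIBP#1 for H2BC12 and H3C10, the differences were -0.68 for H2BC12, -0.96 for H3C10 and -0.91 for H2AC13. Without replicate 3 of Si-FIBP#2, the lowest of its group for H2AC13, the difference of H2AC13 shrank to -0.45 (adjusted p = 0.0382). In that replicate H2AC14, in which 51.7% of the windows of H2AC13 recur, was the highest of its group at 5.67 FPKM, and H2AC13 stood at 2.98 FPKM. Without replicate 1 of Si-FIBP#2 the differences were -0.38 for H2BC12 (adjusted p = 0.0962) and -0.62 for H3C10 (adjusted p = 0.0764). Groups of 3 samples are too small for a check of single outlying values.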

How the results depend on the processing

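The counts of members called higher against Scramble stayed within 1.5 times of 21 under every alternative run, and ranged from 20 to 23 (Si-FIBP#1) and from 17 to 22 (Si-FIBP#2) with each sample left out. The member called lower remained 1 throughout except under the filter of 5 FPKM, which tested no such gene and gave 0 in both comparisons. Counts over all genes were 848, 757 and 84 for Si-FIBP#1, Si-FIBP#2 and the siRNAs against each other. They became 7146, 7309 and 2304 with no fold change threshold and 1498, 1411 and 172 with a pseudocount of 0.1, and ranged from 840 to 882, from 734 to 836 and from 73 to 128 with each sample left out, the last without Si-FIBP#2 replicate 2. Between the siRNAs, members called lower went from 0 to 4 with no fold change threshold and ranged from 0 to 1 with each sample left out, the 1 being without Si-FIBP#1 replicate 2. Without H2BC12 the ratio of the member sum with Si-FIBP#1 was 3.08, and the short share was 75.5%, 69.1% and 66.6% in Scramble, Si-FIBP#1 and Si-FIBP#2. The length limit of 600 nt gave 67.8%, 69.1% and 65.3%. For H4C12 the value with Si-FIBP#1 turned to -0.52 (adjusted p = 0.543) with annotated transcripts only, which leaves out its 2 assembled transcripts. Over 34 gene results and up to 19 alternatives each, 598 of 630 fits kept the direction and the side of the threshold, 26 lost it and 5 gained it. Replicate numbers did not pair the samples (correlations of same-numbered deviations of -0.06 to 0.10), and the replicate block gave 21 higher and 1 lower member in both comparisons with Scramble. Depth is unknown, so counting error could not be given.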
